A study of Mus musculus with 6 samples.

Results

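The genes described here encode the part of the cell cycle that growth factors act on: the 3 D-type cyclins (Ccnd1, Ccnd2 and Ccnd3), their kinases Cdk4 and Cdk6, the 4 INK4 genes (Cdkn2a, Cdkn2b, Cdkn2c and Cdkn2d) and Rb1. They were chosen by gene symbol, and all 10 were found among the 22057 genes of the deposited table. Cultures of neural progenitor cells, which divide and can give rise to neurons and glia, came from 3 mice that lack p53, the tumour suppressor made from Trp53, and their RNA was sequenced. The PDGFA group (n = 3, mice 62, 68 and 69) was kept for 4 days in platelet-derived growth factor A, at 20 ug/ml per the labels, and the EF group (n = 3, the same mice) for 4 days in stem cell medium with EGF, FGF and heparin. Both groups carry the p53-null genotype, and the series design calls EF the control. The labels name no allele, Cre driver, strain, age or sex. PDGFA libraries differ from EF libraries in what was taken away as well as in what was added, so each difference is between the 2 media.

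In textbook outline, growth factor signals raise the D cyclins, which bind CDK4 or CDK6. The active kinases phosphorylate the retinoblastoma protein, which then lets go of E2F transcription factors, and E2F turns on the genes of DNA synthesis, cyclin E among them. INK4 proteins bind CDK4 and CDK6 and keep the D cyclins off. In the developing and adult brain, cyclins D1 and D2 and CDK6 are known for keeping neural precursors dividing, and the CDKN2A, CDK4 and RB1 genes are among those often altered in malignant glioma.

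The libraries held between 34812800 and 39601349 reads in PDGFA and between 27270246 and 30151469 in EF. Reads of Trp53 were present in every library (normalized counts 988.3 to 1122 in PDGFA and 1672 to 2383 in EF), but the deleted part of the gene is not named in the labels, so these reads check nothing. All 8 markers listed for neural progenitors were read in both groups, with a summed normalized count of 65640 to 74180 in PDGFA and 84020 to 196000 in EF. Of these, 4 passed the test as higher in PDGFA (Sox2, Sox9, Msi1 and Prom1) and 3 as lower (Nes, Fabp7 and Vim). Log2 fold changes ran from 0.68 (Sox2) to 1.305 (Prom1) in the higher ones. In the lower ones they ran from -3.70 (Nes, adjusted p = 0.000253 in limma) to -1.28 (Fabp7). The 6 markers of oligodendrocyte precursors summed to 118900 to 195100 in PDGFA and 79080 to 146000 in EF; 2 of them, Gpr17 and Sox10, passed as higher and 3, Cspg4, Olig1 and Olig2, as lower in PDGFA. The EF library of mouse 68 stood apart from the other EF libraries in some of these. Pdgfra read 15700, 17130 and 7987 in PDGFA and 860.9, 14130 and 533.1 in EF for mice 62, 68 and 69. Cspg4 read 4646, 3746 and 3138 in PDGFA and 9962, 30160 and 7218 in EF, and Gpr17 read 108700, 91000 and 66540 in PDGFA and 122.6, 3702 and 24.3 in EF. Where leaving out that library or that mouse changes a call of the 10 genes, the value without it is given below. The 8 oligodendrocyte markers summed to 285600 to 361500 in PDGFA and 2449 to 3864 in EF, and all 8 passed as higher, with Mog at 0 in all EF libraries. The 7 astrocyte markers summed to 158000 to 265500 in PDGFA and 44990 to 79670 in EF. Of these 7, Gfap, Aqp4, S100b and Gja1 passed as higher, none passed as lower, and Slc1a2 (log2 fold change 1.28, adjusted p = 0.0512), Slc1a3 (-0.12) and Aldh1l1 (-0.48) did not pass. Of 6 microglial markers 2 were in the table, and these summed to at most 8.96 in PDGFA and 44.7 in EF. The 7 neuron markers summed to 29200 to 39350 in PDGFA and 25060 to 30550 in EF. Of 6 tested, 2 passed as higher, Tubb3 and Dcx, and 0 as lower. Endothelial markers (3 of 5 in the table) summed to 424.4 to 684.5 in PDGFA and 82.4 to 126.1 in EF. Those of fibroblast and mural cells (4 of 6) summed to 732.4 to 930.2 in PDGFA and 86.9 to 172.3 in EF. Kdr and Pdgfrb passed as higher, Pecam1 and Col1a1 as lower. The 6 markers of dividing cells, Mki67, Top2a, Ccnb1, Plk1, Aurkb and Cdk1, summed to 425.2, 559.6 and 697.0 in PDGFA and to 39210, 60440 and 80410 in EF for mice 62, 68 and 69. These marker levels differed between the groups compared below, and their part in the changes was not tested. In bulk RNA, fewer cells of a type and less RNA per cell cannot be told apart.

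Sequence around the starts of the kinases and of the INK4 pair on chromosome 4 is shown first, because these neighbours and partners parted in the data. Windows of 250 bases before and 50 after a gene's start, from RefSeq (GRCm38.p6), were found for 7 of the 10 genes, in 10 windows; Ccnd1, Ccnd2 and Rb1 had none. Searched on both strands were CACGTG (the E-box that MYC and its partner MAX bind), TTTCCCGC, TTTCGCGC, TTTGCCGC and TTTGGCGC (E2F), TGACTCA (AP-1) and TGACGTCA (CREB and ATF factors), all picked with the members' values known. Capitals mark the matches. The Cdk4 window (chr10:127063285-127063584, plus strand) holds 4 copies of CACGTG, beginning 172, 118, 98 and 11 bases before the start. The Cdk6 window (chr5:3343643-3343942, plus strand) holds 1, beginning 220 bases before the start.

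Cdk4: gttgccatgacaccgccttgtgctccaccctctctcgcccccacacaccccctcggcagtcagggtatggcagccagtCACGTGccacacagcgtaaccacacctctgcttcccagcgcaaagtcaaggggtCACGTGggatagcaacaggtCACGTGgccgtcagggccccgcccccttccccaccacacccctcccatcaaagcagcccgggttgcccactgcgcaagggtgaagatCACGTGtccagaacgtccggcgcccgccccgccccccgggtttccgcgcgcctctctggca

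Cdk6: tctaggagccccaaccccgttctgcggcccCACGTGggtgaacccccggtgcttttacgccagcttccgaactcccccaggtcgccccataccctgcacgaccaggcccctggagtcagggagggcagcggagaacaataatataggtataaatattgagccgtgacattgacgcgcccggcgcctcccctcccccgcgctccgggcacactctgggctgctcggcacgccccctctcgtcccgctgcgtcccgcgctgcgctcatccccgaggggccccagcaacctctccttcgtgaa

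Of all 32851 mouse windows, 7.15% hold CACGTG at least once and 8 windows hold it 4 times or more. Cdkn2a is read from a pair of starts. The upstream one (chr4:89294570-89294869, minus strand) begins the transcript of the ARF protein, which acts on the p53 pathway, and holds TTTCCCGC beginning 99 bases before the start; 2.26% of all windows hold one of the 4 E2F words. The downstream one (chr4:89282143-89282442, minus strand) begins the transcript of the CDK inhibitor p16INK4a and holds none of the words searched. Cdkn2b, the neighbour that encodes p15INK4b (chr4:89310983-89311282, minus strand), holds TGACGTCA beginning 46 bases before the start, as do 1.79% of all windows somewhere.

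Cdkn2a, ARF start: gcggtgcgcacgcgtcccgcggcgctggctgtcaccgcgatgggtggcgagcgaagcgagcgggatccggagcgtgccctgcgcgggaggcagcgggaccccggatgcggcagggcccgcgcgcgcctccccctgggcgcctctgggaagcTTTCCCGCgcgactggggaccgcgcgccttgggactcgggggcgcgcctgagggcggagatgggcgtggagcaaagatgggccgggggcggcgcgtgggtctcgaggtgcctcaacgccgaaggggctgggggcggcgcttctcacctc

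Cdkn2a, p16INK4a start: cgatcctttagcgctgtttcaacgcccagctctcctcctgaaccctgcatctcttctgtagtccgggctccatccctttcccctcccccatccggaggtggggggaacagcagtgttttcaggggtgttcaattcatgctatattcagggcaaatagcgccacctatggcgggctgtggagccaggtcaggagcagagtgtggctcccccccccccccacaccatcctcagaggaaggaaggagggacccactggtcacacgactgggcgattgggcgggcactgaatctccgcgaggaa

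Cdkn2b: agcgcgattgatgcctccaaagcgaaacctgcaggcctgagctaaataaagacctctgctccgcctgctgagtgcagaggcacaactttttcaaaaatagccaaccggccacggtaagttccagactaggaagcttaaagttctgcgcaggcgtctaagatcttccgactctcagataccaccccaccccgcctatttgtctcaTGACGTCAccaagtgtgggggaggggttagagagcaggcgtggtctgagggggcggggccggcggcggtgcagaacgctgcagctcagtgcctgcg

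A match of letters shows no binding, and the absence of a match says only that these letters are not in the window. The windows of Ccnd3 and Cdkn2d and the upstream window of Cdkn2c held none of the words, and the downstream window of Cdkn2c held CACGTG once.

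Of the 10 genes, 5 fell in PDGFA (Ccnd1, Ccnd2, Ccnd3, Cdk6 and Cdkn2c), 2 rose (Cdkn2b and Rb1), and Cdk4, Cdkn2a and Cdkn2d did not pass the test. The test was limma on log2(normalized count + 1), two-sided, with Benjamini-Hochberg adjustment at 0.05 over the 17068 genes with a mean normalized count of at least 10, and all 10 genes passed that filter. A normalized count is a read count divided by 1 size factor per library. Of all tested genes 18.0% passed as lower, 21.8% as higher and 39.8% in either direction, so a change as such is common in this comparison. Without the PDGFA library of mouse 68, 1855 genes passed as lower and 2306 as higher, in place of 3076 and 3720. The groups did not overlap for 7 of the 10 genes, against 55.5% of all tested genes (29.2% higher and 26.3% lower in PDGFA). The median log2 fold change was -0.87 over the 10 genes and -0.0095 over all tested genes. The plot of counts by library shows the values described below.

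**Figure D1:**
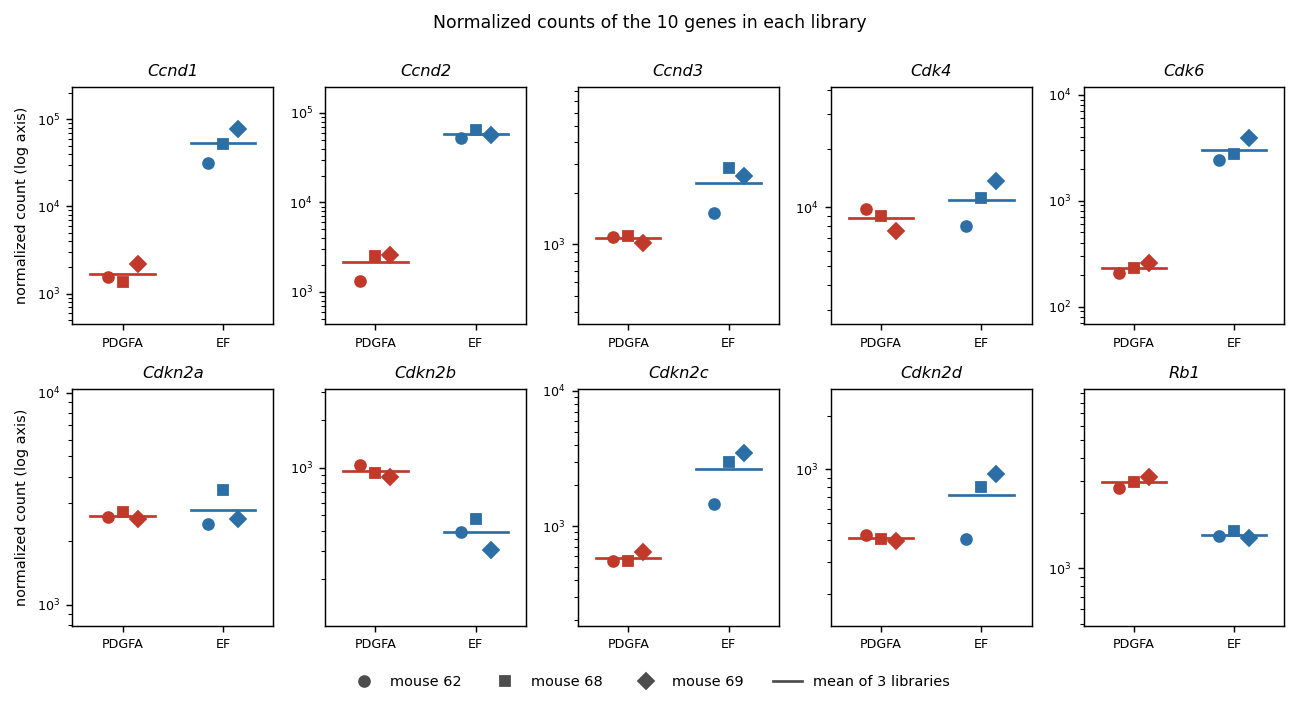
Normalized count (log axis) of each of the 10 genes in the 3 PDGFA libraries (red, left) and the 3 EF libraries (blue, right). Symbols mark the mouse and bars the group mean. The groups are apart for Ccnd1, Ccnd2, Ccnd3, Cdk6, Cdkn2b, Cdkn2c and Rb1, and overlap for Cdk4, Cdkn2a and Cdkn2d.

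Cyclins D1 and D2, the D cyclins most directly tied to mitogen signals, fell to a few percent of their level in EF. Ccnd1 (ENSMUSG00000070348.5, chromosome 7, 144929931 to 144939925, GENCODE M21, GRCm38) had normalized counts of 1565, 1344 and 2167 in PDGFA and 31600, 52200 and 77720 in EF for mice 62, 68 and 69. The highest PDGFA library lay far below the lowest EF library. Its mean was 1692 ± 426 in PDGFA and 53840 ± 23100 in EF (SD, n = 3 each), so PDGFA held 3.14% of the EF mean, and the log2 fold change was -4.93 (SE 0.33, adjusted p = 4.84e-05). Only 1.01% of all tested genes had a lower log2 fold change.

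Ccnd2 (ENSMUSG00000000184.12, chromosome 6, 127125162 to 127152193) read 1314, 2535 and 2569 in PDGFA and 51910, 64640 and 56760 in EF. Again the groups lay far apart, and the fall was found within each mouse. PDGFA held 3.70% of the EF mean, and the log2 fold change was -4.81 (SE 0.27, adjusted p = 2.62e-05). By mean normalized count in EF, Ccnd2 ranked 21st and Ccnd1 24th of the 17068 tested genes; in PDGFA they ranked 3700th and 4487th. These ranks are not per length.

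Ccnd1 and Ccnd2 differed in how they varied inside the groups. In EF, Ccnd1 spanned a 2.46-fold range from the lowest to the highest library and Ccnd2 a 1.25-fold range. In PDGFA the ranges were 1.61-fold for Ccnd1 and 1.96-fold for Ccnd2, where mouse 62 held the least Ccnd2. The order of the EF libraries in Ccnd1, mouse 62 below 68 below 69, was also that of the summed markers of dividing cells, and that of Ccnd2 was not. The groups overlapped in their ratio within a library, per kb of exon: Ccnd1 stood at 2.38, 1.06 and 1.69 times Ccnd2 in PDGFA and at 1.22, 1.61 and 2.74 times in EF. The log2 ratio differed by -0.11 between the groups (exact permutation test, two-sided, p = 0.8), and the sign of that difference changed when the PDGFA library of mouse 68 (0.19) or the EF library of mouse 69 (0.21) was left out.

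Ccnd3, the D cyclin best known from lymphocytes and from cells that leave division to differentiate, had a smaller fold change. It (ENSMUSG00000034165.16, chromosome 17, 47505051 to 47599691) read 1112, 1122 and 1020 in PDGFA and 1535, 2818 and 2522 in EF. The PDGFA libraries were nearly level, and the EF library of mouse 62 was the one nearest to them. PDGFA held 47.3% of the EF mean, and the log2 fold change was -1.03 (SE 0.23, adjusted p = 0.0105), with a 95% interval of -1.57 to -0.49. Without both libraries of mouse 68 the adjusted p was 0.0956, and over the alternatives it ran from 0.000168 to 0.0956.

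The unequal falls changed the make-up of the D cyclins. Per kb of exon, the summed D cyclins stood at 710.3 ± 128 in PDGFA and 17840 ± 5230 in EF, which is 25.1-fold higher in EF. Ccnd3 made up 21.2%, 18.7% and 13.7% of that sum in PDGFA and 1.41%, 1.76% and 1.26% in EF for mice 62, 68 and 69. Per kb of coding sequence its share was 27.9%, 22.4% and 17.7% in PDGFA and 1.80%, 2.35% and 1.84% in EF. Ccnd1 made up 50.5% ± 7.55 of the sum per kb of exon in PDGFA and 62.4% ± 9.22 in EF, with ranges that overlapped (41.8% to 55.5% and 54.1% to 72.3%). Per kb of coding sequence its share was 34.2% ± 6.69 in PDGFA and 45.4% ± 9.96 in EF. On that scale Ccnd2 had the larger mean share, 43.1% ± 9.05 in PDGFA and 52.6% ± 9.93 in EF, though not in every library. The log2 ratio of Ccnd3 to Ccnd1 was 3.89 higher in PDGFA, and the groups did not overlap (exact permutation test, p = 0.1, the smallest that 3 against 3 libraries can give; 0.117 after Benjamini-Hochberg adjustment over the 7 ratios tested). Ratios within a library do not depend on its size factor. All exact tests of ratios here shuffled the 6 libraries as unpaired, although each mouse gave cells to both groups.

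**Figure D2:**
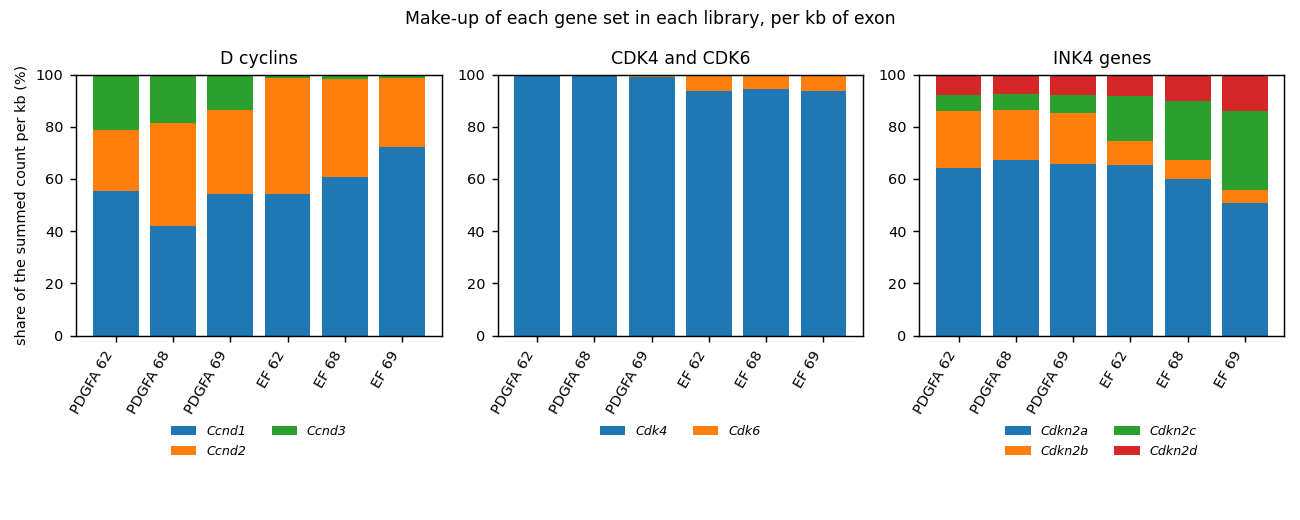
Share (%) of each gene in the summed normalized count per kb of exon of the D cyclins, of CDK4 and CDK6 and of the INK4 genes, 1 bar per library, PDGFA libraries left of EF libraries. Ccnd3 makes up 13.7% to 21.2% of the D cyclins in PDGFA and at most 1.76% in EF, Cdk6 at most 0.784% of the kinases in PDGFA and 5.46% to 6.54% in EF, and Cdkn2c 5.90% to 7.23% of the INK4 genes in PDGFA and 17.3% to 30.0% in EF.

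The kinases parted: Cdk6 fell and Cdk4 did not pass the test. Cdk6 (ENSMUSG00000040274.11, chromosome 5, 3341485 to 3531008) read 205.4, 233.0 and 258.9 in PDGFA and 2410, 2771 and 3920 in EF. The highest PDGFA library lay far below the lowest EF library, and the fall was found within each mouse. PDGFA held 7.66% of the EF mean, and the log2 fold change was -3.68 (SE 0.21, adjusted p = 2.71e-05).

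Cdk4 (ENSMUSG00000006728.12, chromosome 10, 127063534 to 127067920) read 9798, 9052 and 7608 in PDGFA and 7997, 11140 and 13740 in EF. The groups overlapped: mouse 62 held more in PDGFA and mice 68 and 69 held more in EF. The log2 fold change was -0.29 (SE 0.22, adjusted p = 0.334), with a 95% interval of -0.80 to 0.23, so a fall as large as that of Cdk6 lies outside it. Without the EF library of mouse 62 it was -0.50 and passed (adjusted p = 0.0466; 0.0466 to 0.693 over the alternatives). The annotated exons of Cdk4 share 641 bases, 19.7% of their length, with those of Tspan31 on the other strand, whose own log2 fold change was -0.37.

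Within each library Cdk6 stood, per kb of exon, at 0.00487, 0.00598 and 0.0079 of Cdk4 in PDGFA and at 0.07, 0.0577 and 0.0663 in EF. The log2 ratio was 3.40 lower in PDGFA (-3.40 as PDGFA minus EF), and the groups did not overlap (exact permutation test, p = 0.1, the smallest possible). Cdk6 made up 0.621% ± 0.152 of the summed kinases per kb of exon in PDGFA and 6.07% ± 0.555 in EF. Per kb of coding sequence the share was 2.44% ± 0.584 in PDGFA and 20.5% ± 1.60 in EF, since the annotated exons of Cdk6 are long (14.0 kb against 3.25 kb for Cdk4). On either scale Cdk4 was the main kinase in all 6 libraries. The Cdk4 and Cdk6 windows printed above differ in CACGTG, 4 copies against 1, and Myc, whose product binds these letters, had a normalized count of 2828 ± 368 in PDGFA and 6034 ± 1890 in EF (log2 fold change -1.06, adjusted p = 0.00846; 0.0557 without both libraries of mouse 68). Whether these letters bear on the values was not tested.

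**Figure D3:**
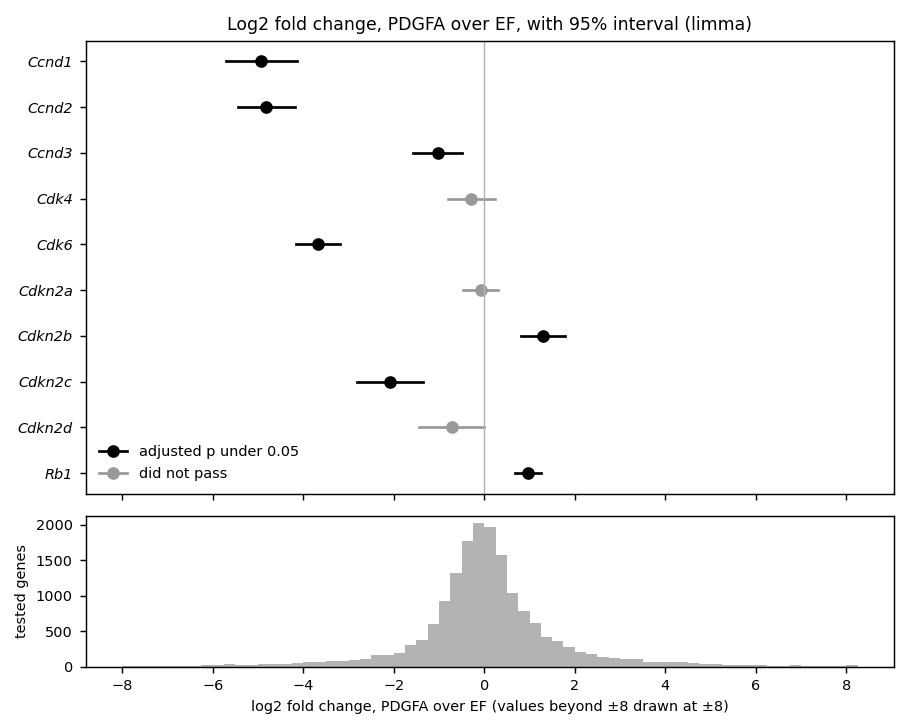
Upper panel, log2 fold change (PDGFA over EF) of each gene with its 95% interval from limma, black where the adjusted p is under 0.05. Lower panel, the same measure over the 17068 tested genes. Ccnd1 (-4.93), Ccnd2 (-4.81) and Cdk6 (-3.68) lie in the thin left tail, and the intervals of Cdk4, Cdkn2a and Cdkn2d reach 0.

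The INK4 genes moved in both directions. Cdkn2b (ENSMUSG00000073802.5, chromosome 4, 89306299 to 89311039), the p15 inhibitor that TGF-beta induces, read 1043, 927.2 and 876.2 in PDGFA and 392.6, 476.2 and 303.0 in EF. All PDGFA libraries were above all EF libraries. The mean was 2.43-fold higher in PDGFA, and the log2 fold change was 1.30 (SE 0.20, adjusted p = 0.00226).

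Cdkn2a (ENSMUSG00000044303.6, chromosome 4, 89274471 to 89294653) lies next to Cdkn2b and read 2584, 2737 and 2532 in PDGFA and 2386, 3464 and 2544 in EF. The groups overlapped, and apart from the EF library of mouse 68 the libraries were close to each other. The log2 fold change was -0.077 (SE 0.17, adjusted p = 0.74), with a 95% interval of -0.47 to 0.31, and without the EF library of mouse 68 it was 0.087. The gene's row adds up transcripts from both starts shown above, so p16INK4a and ARF are not separated. The ratio of Cdkn2b to Cdkn2a, a pair picked after its values were seen, was 0.34, 0.286 and 0.292 per kb of exon in PDGFA and 0.139, 0.116 and 0.1 in EF. Its log2 difference was 1.38 (exact permutation test, p = 0.1, the smallest possible).

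Cdkn2c, which encodes p18, fell. It (ENSMUSG00000028551.14, chromosome 4, 109660876 to 109667189) read 551.7, 549.0 and 637.0 in PDGFA and 1445, 2978 and 3444 in EF. The groups did not overlap, and the EF library of mouse 62 held less than the other two. PDGFA held 22.1% of the EF mean, and the log2 fold change was -2.09 (SE 0.31, adjusted p = 0.00178).

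Cdkn2d, which encodes p19INK4d (ENSMUSG00000096472.2, chromosome 9, 21288410 to 21291407), read 428.6, 408.7 and 396.9 in PDGFA and 408.0, 801.6 and 944.8 in EF. The EF library of mouse 62 was level with PDGFA and the other EF libraries were above it. The log2 fold change was -0.72 (SE 0.31, adjusted p = 0.103), with a 95% interval of -1.44 to 0.0035. It passed without the EF library of mouse 62 (-1.08, adjusted p = 0.0022) and in DESeq2 on the recovered reads (-0.80, adjusted p = 0.0333), and its adjusted p lay between 0.0022 and 0.405 over all settings tried. Cdkn2c and Cdkn2d kept a nearly fixed ratio inside EF, since Cdkn2d stood at 0.482, 0.459 and 0.468 of Cdkn2c per kb of exon. In PDGFA it stood at 1.33, 1.27 and 1.06, so that on this scale Cdkn2d exceeded Cdkn2c in all 3 PDGFA libraries and in none of EF. The log2 difference of the ratio was 1.37 (exact permutation test, p = 0.1, the smallest possible). Per kb of coding sequence Cdkn2c exceeded Cdkn2d in all 6 libraries. In PDGFA Cdkn2c then made up 11.3%, 11.2% and 13.6% of the summed INK4 genes, and Cdkn2d 8.85%, 8.47% and 8.57%.

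Added up per kb of exon, the INK4 genes gave sums that overlapped between the groups, 3433, 3466 and 3280 in PDGFA and 3115, 4917 and 4271 in EF. The EF library of mouse 62 was the lowest of all and those of mice 68 and 69 the highest. On this scale Cdkn2a made up more than any other INK4 gene in every library, 65.8% ± 1.57 of the sum in PDGFA and 58.8% ± 7.35 in EF. Cdkn2b made up 20.1% ± 1.52 in PDGFA and 7.05% ± 1.98 in EF, and Cdkn2c 6.37% ± 0.746 in PDGFA and 23.3% ± 6.41 in EF. Per kb of coding sequence, Cdkn2c (47.0%) exceeded Cdkn2a (34.5%) in the EF library of mouse 69.

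Rb1, the retinoblastoma gene (ENSMUSG00000022105.6, chromosome 14, 73183673 to 73325822), rose. It read 2761, 2965 and 3167 in PDGFA and 1495, 1600 and 1464 in EF. Both groups were tight and did not overlap. The mean was 1.95-fold higher in PDGFA, and the log2 fold change was 0.96 (SE 0.12, adjusted p = 0.000867), or between 0.91 and 1.01 over the alternatives. Rbl1, which encodes the related pocket protein p107, fell to 270.8 ± 16.1 in PDGFA, against 1663 ± 611 in EF (log2 fold change -2.56, adjusted p = 0.000275). Per kb of exon Rb1 stood at 10.6, 11.2 and 10.9 times Rbl1 in PDGFA and at 1.24, 1.12 and 0.619 times in EF, a log2 difference of 3.52 (exact permutation test, p = 0.1, the smallest possible).

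Lpar6, a receptor gene for lysophosphatidic acid, lies within the span of Rb1 on the other strand and was looked up after the values of Rb1 were seen. It read 112.0, 106.9 and 144.2 in PDGFA and 678.0, 699.2 and 909.0 in EF, with a log2 fold change of -2.64 (adjusted p = 0.000123). Host and nested gene thus moved in opposite directions, although 408 bases of annotated exon are shared. Of the other genes that overlap a member, LTO1 shares 1100 bases with Ccnd1, 23.4% of the Ccnd1 exons, and read 645.1 to 826.7 in PDGFA and 409.8 to 485.5 in EF. The library kit does not mark strand, so reads from such shared bases cannot be assigned to a strand.

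The order of the levels per kb of exon differed between the media. In PDGFA it ran Cdk4 (2715 ± 343), Cdkn2a (2233 ± 90.8), Cdkn2b (682.6 ± 61.5), Rb1 (492.8 ± 33.8), Ccnd1 (359.4 ± 90.4), Cdkn2d (261.4 ± 10.2), Ccnd2 (227.4 ± 76.0), Cdkn2c (215.7 ± 18.6), Ccnd3 (123.6 ± 6.37) and Cdk6 (16.6 ± 1.91). Among these neighbours, the ranges of Rb1 and Ccnd1, of Cdkn2d and Ccnd2 and of Ccnd2 and Cdkn2c overlapped. In EF it ran Ccnd1 (11430 ± 4910), Ccnd2 (6140 ± 683), Cdk4 (3373 ± 884), Cdkn2a (2387 ± 497), Cdkn2c (976.3 ± 389), Cdkn2d (456.2 ± 177), Cdkn2b (281.0 ± 62.3), Ccnd3 (261.2 ± 76.6), Rb1 (252.6 ± 11.9) and Cdk6 (216.9 ± 56.3). There the ranges overlapped for all neighbours except Ccnd2 with Cdk4 and Cdkn2a with Cdkn2c. By mean level per kb of exon, cyclins D1 and D2 were thus above Cdk4 in EF and below Cdk4, Cdkn2a, Cdkn2b and Rb1 in PDGFA. This order depends on the length used. Per kb of coding sequence (885 bases for Ccnd1, 867 for Ccnd2 and 2763 for Rb1), both cyclins stood above Rb1 in PDGFA. Ccnd2 was then close to Cdkn2b by group mean only, below it in mouse 62 and above it in mice 68 and 69.

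The EF libraries were mostly further apart than the PDGFA libraries. The SD of log2 values was larger in EF for 8 of the 10 genes, all but Ccnd2 and Rb1, and for 81.3% of all tested genes. Mouse 62 had the lowest EF value in 8 of the 10 genes, all but Cdkn2b and Rb1, and in 42.6% of all tested genes. The order 62 below 68 below 69, which the summed markers of dividing cells had in EF, was found for Ccnd1, Cdk4, Cdk6, Cdkn2c and Cdkn2d, and for 28.8% of all tested genes. With 3 libraries this is a description of these cultures.

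Among 11899 other named genes with a mean of at least 50, those whose centred log2 profile over the 6 libraries lay nearest to a member were picked by root mean square difference. For Ccnd1 they were the condensin gene Ncaph (0.116 log2 units), Sgo2a, which protects centromeric cohesion (0.127), and Spry4, an inhibitor of receptor tyrosine kinase signalling (0.133). For Ccnd2 they were the noncoding RNA Lockd (0.15), the DNA repair gene Fanci (0.232) and Dusp6, the ERK phosphatase (0.275). For Cdk6 they were the kinetochore gene Zwilch (0.0765), Prr11 (0.0779) and the mitotic kinase gene Mastl (0.0858), and for Cdkn2c they were Galnt7 (0.117), Msn (0.143) and Trim59 (0.144). Cdkn2b lay nearest to Map1lc3a (0.0694), Pag1 (0.0713) and Prkca (0.0862), and Rb1 to Aktip (0.0431), Lysmd4 (0.0549) and Tmem167b (0.0552). The group difference makes up most of each profile.

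Downstream of the retinoblastoma protein, all 17 genes listed as G1/S genes under E2F control fell. Their median log2 fold change was -2.68, against -0.0095 over all tested genes, of which 18.0% fell. Mcm5, part of the replicative helicase, averaged 176.7 ± 11.6 in PDGFA and 4295 ± 2300 in EF, and Cdt1, which loads that helicase, 106.6 ± 8.76 in PDGFA and 1479 ± 754 in EF. Without both libraries of mouse 68, 13 of the 17 passed. Of 12 E2F factors, their partners and the other pocket proteins, 8 fell and 1 rose, with a median of -1.07. Among all tested genes 18.0% fell and 21.8% rose. E2f1, an activator of S phase genes, averaged 37.3 ± 5.86 in PDGFA and 1007 ± 570 in EF, and E2f7, a repressor among the E2F factors, 24.7 ± 5.92 in PDGFA and 1123 ± 672 in EF. Rbl2, the gene of the pocket protein p130 of resting cells, was the gene that rose. It averaged 2292 ± 335 in PDGFA and 1502 ± 62.5 in EF (log2 fold change 0.60, adjusted p = 0.0158). It did not pass without the PDGFA library of mouse 68 (0.0757) or of mouse 69 (0.0658), nor without both libraries of mouse 68 (0.135).

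Of 8 genes of the CDK2 arm and its CIP/KIP inhibitors, 6 fell and 1 rose, with a median of -1.91, where 18.0% of all tested genes fell and 21.8% rose. Without both libraries of mouse 68, 3 of the 8 fell. Ccna2, cyclin A2 of S and G2 phase, averaged 74.4 ± 18.1 in PDGFA and 7293 ± 4020 in EF, and Ccne2, a cyclin E, 71.5 ± 11.4 in PDGFA and 733.5 ± 489 in EF. Cdkn1c, which encodes the inhibitor p57, averaged 1772 ± 583 in PDGFA and 281.0 ± 190 in EF (log2 fold change 2.99, adjusted p = 0.0102, and 2.14 without the EF library of mouse 62). The other inhibitors of the list did not rise. Cdkn1a fell, from 254.7 ± 173 in EF to 54.9 ± 14.4 in PDGFA (log2 fold change -2.03, adjusted p = 0.013 in limma). Without both libraries of mouse 68 it did not pass (adjusted p = 0.0538). Cdkn1b did not pass (0.19, adjusted p = 0.453).

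Of 12 listed genes that act on the cyclin D complexes after transcription, among them the CDK-activating kinase genes Cdk7, Ccnh and Mnat1, the chaperone Cdc37 and Gsk3b, whose kinase marks cyclin D1 for breakdown, 2 rose, none fell and 10 did not pass, with a median of 0.16, where 21.8% of all tested genes rose and 18.0% fell. Those that rose were Fbxo31 (log2 fold change 0.51, adjusted p = 0.0247) and Cryab (1.64, adjusted p = 0.0357), both known from cyclin D1 turnover. With the mouse as a block 1 of the 2 passed, since Fbxo31 had an adjusted p of 0.069 there. Fbxo31 also did not pass without the PDGFA library of mouse 62 (0.113) or 68 (0.118) or the EF library of mouse 68 (0.0546), and Cryab without the PDGFA library of mouse 68 (0.0791) or 69 (0.113) or the EF library of mouse 62 (0.0785) or 69 (0.0773). Without both libraries of mouse 68 neither passed.

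Of 13 Polycomb genes known as repressors of the Cdkn2a and Cdkn2b locus, 3 fell and 1 rose, and their median log2 fold change was -0.059. The share that fell is near the 18.0% over all tested genes, and the share that rose is below their 21.8%, so these counts are no result about the list. Without the EF library of mouse 62, 5 fell, and without either library of mouse 69, left out in turn, 2 rose. In edgeR, in DESeq2 and with another scaling (TMM) 4 fell and 2 rose. With a pseudocount of 8 or a filter at a mean of 50, 2 rose as well. Without both libraries of mouse 68, 3 fell and 0 rose. Ezh2, the methyltransferase of the complex, averaged 1638 ± 186 in PDGFA and 4292 ± 1290 in EF (log2 fold change -1.35, adjusted p = 0.00266), and its partner Suz12 1937 ± 21.5 in PDGFA and 3913 ± 893 in EF (adjusted p = 0.00363). Cbx7, a reader of the Polycomb mark, averaged 864.5 ± 280 in PDGFA and 327.0 ± 46.9 in EF (log2 fold change 1.36, adjusted p = 0.00505; 0.061 without both libraries of mouse 68).

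Of 18 listed regulators of D cyclin and INK4 transcription, 17 were tested, 5 rose and 5 fell, with a median of 0.043. Among all tested genes 21.8% rose and 18.0% fell. The counts of the list are not far above these shares, so they are no result about it. The ETS factors Etv5 and Etv4 respond to ERK signalling. Etv5 averaged 1241 ± 140 in PDGFA and 12270 ± 2600 in EF, and Etv4 344.4 ± 144 in PDGFA and 5417 ± 980 in EF. Tcf7l2, the factor through which Wnt signals reach their targets, averaged 10010 ± 663 in PDGFA and 2488 ± 532 in EF, and Id1, known as a repressor of p16INK4a, 877.5 ± 151 in PDGFA and 273.1 ± 72.7 in EF. Smad3, which carries TGF-beta signals, averaged 3530 ± 300 in PDGFA and 1924 ± 247 in EF (adjusted p = 0.00291; 0.0566 without both libraries of mouse 68). Without both libraries of mouse 68, 2 of the 17 rose and 3 fell.

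**Figure D4:**
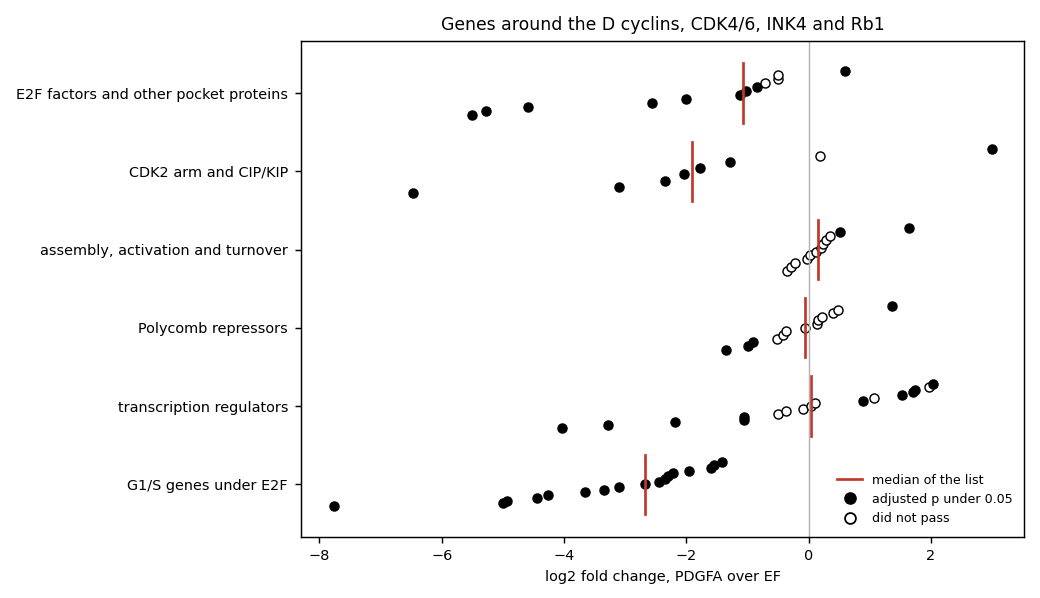
Log2 fold change (PDGFA over EF) of each tested gene of the 6 lists around the 10 genes, filled where the adjusted p in limma is under 0.05, with the median of each list as a red line. All 17 G1/S genes under E2F control lie left of 0, while the 12 genes of assembly, activation and turnover lie around 0 with a median of 0.16.

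The fold changes of the 10 genes held their sign in every alternative setting tried except those of Cdkn2a, and the plot of these settings shows how far each moved.

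**Figure D5:**
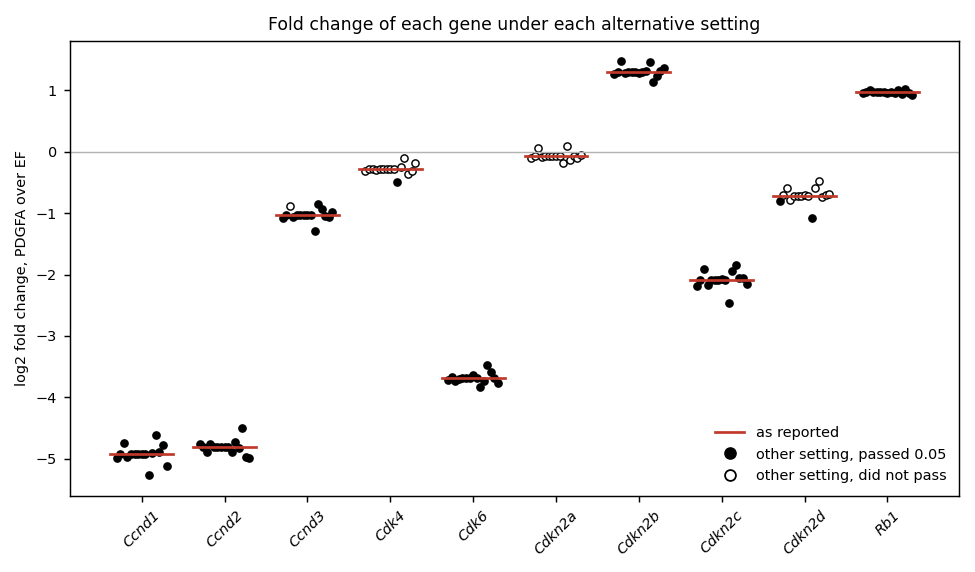
Log2 fold change (PDGFA over EF) of each gene as reported (red line) and under each of 15 alternative settings (points, filled where the adjusted p was under 0.05, open where it was not). Ccnd1, Ccnd2, Cdk6, Cdkn2b, Cdkn2c and Rb1 are filled in all settings, Ccnd3 in all but 1, and Cdkn2a in none.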

How the data were processed

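RNA of 3 PDGFA and 3 EF cultures was sequenced as polyadenylated RNA, with libraries from a NEBNext Ultra II kit that does not mark strand, per the labels. The deposited table holds normalized signal: each gene's count over the size factor of its library. STAR, DESeq2 and the mm10 (GRCm38) build are named, per the submitters' processing notes, with annotation and strand setting not given in the sources used here. Taking a library's smallest nonzero value as 1 read gave whole reads (within 0.001) for 100% of values. No gene in the table has fewer than 10 reads in all. No library held fewer than 237 reads of any of the 10 genes.

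Genes with a mean normalized count of at least 10 were tested (17068 tested, 4989 left out) as log2(normalized count + 1) with limma 3.58.1 in R 4.3.3 (trended eBayes, group as the only term, Benjamini-Hochberg adjustment). A fold change on this scale is too small where reads are few. On the recovered reads edgeR 4.0.16 called 3592 genes higher and 3263 lower, and DESeq2 1.42.0 called 3942 and 3746. On the normalized counts limma called 3720 higher and 3076 lower. Levels per kb divide by merged exon length, or by the longest coding length, of GENCODE M21. Means are ± SD. Intervals are limma confidence intervals for the log2 fold change. They are derived from the spread between libraries and are not ranges that hold the values of single libraries or mice.

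Mice 62, 68 and 69 gave cells to both groups, so libraries are paired by animal, as the titles show. Within pairs, deviations from the group means correlated at -0.0906, 0.11 and -0.11. A fit blocked by mouse was among the alternatives for the fold changes. The exact tests of ratios ignored this pairing, and no paired version was run. Where the labels do not say that cultures were set up separately, p-values measure only the spread between these libraries.

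The 10 genes, the 6 lists and the tests were chosen with earlier results of these data known. The lists name up to 2 passing genes per direction with the smallest p, plus genes whose role is stated. The genes with profiles nearest to that of Ccnd3 are not reported here. Sequences are from RefSeq (GRCm38.p6); the last 50 bases of the windows of Cdkn2a (p16INK4a start), Cdk6, Ccnd3 and Cdkn2c that begin at a GENCODE transcript start equalled that transcript.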

Additional observations from a re-analysis of the deposited data

How the results depend on the processing

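Under the alternatives the 2 rises were found in all 15 settings, and between 4 and 7 of the 10 genes fell. The genes Ccnd1, Ccnd2, Cdk6, Cdkn2b, Cdkn2c and Rb1 kept direction and call throughout, the replicate block included, where Ccnd1 had a log2 fold change of -4.93 and Rb1 0.96. With the mouse as a block 5 members fell and 2 rose, as without it, 3213 of all tested genes were higher and 2626 lower, and the block changed no member's call. Leaving out 1 library gave 2306 to 4213 higher and 1855 to 3848 lower genes of all tested, the fewest without the PDGFA library of mouse 68, and leaving out both libraries of that mouse, with fewer samples, 1945 and 1335. The log2 fold change of Cdkn2a ran from -0.18 to 0.087 with 1 library left out and was 0.054 without mouse 68, and the log2 difference of Ccnd1 over Ccnd2 ran from -0.39 to 0.209; the cause was not tested. Ccnd3 did not pass without mouse 68 (-0.88), Cdk4 passed without the EF library of mouse 62 (-0.50), and Cdkn2d passed there (-1.08) and in DESeq2 (-0.80). Another scaling (TMM) left the median of all tested genes at -0.00486. With 3 libraries a group, an unpaired exact test of a single ratio cannot go below p = 0.1, and counts per gene do not separate transcripts.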
